A study of Mus musculus with 2 samples.

Results

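Fragments of 6 small noncoding RNA genes were counted in mouse embryonic stem cells: the Y RNAs Rny1 and Rny3, the 7SK RNA Rn7sk, the RNase MRP RNA Rmrp, the RNase P RNA Rpph1 and the vault RNA Vaultrc5. The genes were listed by name, and they are 6 of the 55450 genes of the GENCODE M21 transcript reference. A distinct sequence with its read count is called a tag, and a tag was assigned to a gene when it matched the gene's transcript exactly and in sense. SC1 tags of 15 to 17 nt and DMSO tags of 18 to 31 nt were used.

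The cells were J1, an established embryonic stem cell line of the mouse strain 129S4/SvJae, adapted to gelatin and grown with knockout serum replacement. Cells of the SC1 group had received 1 µM SC1 for 6 h. SC1, also called pluripotin, is a synthetic compound that blocks RasGAP and ERK1 and helps such cells to keep renewing themselves. Cells of the DMSO group had received an equal volume of the solvent for 6 h. Both groups were kept in 1000 U/mL LIF, the cytokine that sustains self-renewal, and each group had 1 library of small RNA made from total RNA.

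The deposited list of the SC1 library held 1275599 reads in 88867 tags of 3 to 17 nt, and 1054495 of these reads (82.7%) were 15 to 17 nt long. The list of the DMSO library held 18870345 reads in 910008 tags of 18 to 44 nt, and 18862866 of these reads were 18 to 31 nt long. The lists have no length in common, so treatment, library and length class cannot be told apart, and each list is described on its own with no test between SC1 and DMSO. These totals are those of a length class and not the depth of a library. Of 10 microRNA hairpins that mark embryonic stem cells, 6 had reads in the SC1 list (26900 reads, 2.55% of the 15 to 17 nt reads, with Mir302a to Mir302d at 0) and all 10 in the DMSO list (624098 reads, 3.31%). Mir293 alone held 26618 of these SC1 reads and 231910 of these DMSO reads, so the SC1 share is nearly that of 1 hairpin. Of 5 fibroblast hairpins, 3 had reads in the SC1 list (41 reads, 0.00389%) and 4 in the DMSO list (3939 reads, 0.0209%).

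All 6 RNAs are made by RNA polymerase III and act in full length. Y RNAs fold back so that both ends of the molecule form a stem. They carry the Ro60 and La proteins, have been tied to the start of DNA replication, and are a known source of short fragments from both ends. 7SK RNA holds the elongation factor P-TEFb inactive together with HEXIM and LARP7 proteins, RNase MRP RNA is the core of an enzyme that cuts precursor ribosomal RNA, RNase P RNA is the core of the enzyme that removes the leader of precursor tRNAs, and vault RNA is a component of the cytoplasmic vault particle.

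The Y RNA transcripts are printed because their fragments came from fixed stretches. The sequences are those of GENCODE M21 on GRCm38, read 5′ to 3′ in DNA letters. Capitals mark bases 1 to 30 and 84 to 110 of Rny1 and bases 1 to 24 of Rny3, the stretches covered by the leading fragments, and positions are counted from 1 at the 5′ end of the transcript throughout.
Rny1 transcript, bases 1 to 112: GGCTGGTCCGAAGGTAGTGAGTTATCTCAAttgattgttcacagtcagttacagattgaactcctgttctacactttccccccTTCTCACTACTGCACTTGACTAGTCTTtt
Rny3 transcript, bases 1 to 102: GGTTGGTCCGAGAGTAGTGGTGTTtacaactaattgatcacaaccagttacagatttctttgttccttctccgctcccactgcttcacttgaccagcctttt

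The tags that marked the main start positions in 7SK, RNase MRP and RNase P RNA are given as they stand in the lists. The last tag below comes from the 3′ end of Rny1 and shows in a capital the base that the transcript does not hold.
Rn7sk, SC1 list, bases 50 to 66, 27 reads: gggttgattcggctgat
Rn7sk, SC1 list, bases 250 to 266, 21 reads: taggagaacgtagggta
Rpph1, SC1 list, bases 173 to 188, 9 reads: cgagtcggggcggatg
Rn7sk, DMSO list, bases 244 to 266, 130 reads: ccattgtaggagaacgtagggta
Rn7sk, DMSO list, bases 127 to 147, 74 reads: gctgcgcgctcggtcgaagag
Rmrp, DMSO list, bases 5 to 32, 55 reads: agctcgctctgaaggcctgtttcctagg
Rpph1, DMSO list, bases 225 to 244, 85 reads: cttggaacagactcacggcc
Rny1, DMSO list, bases 84 to 110 with an added A, 955 reads: ttctcactactgcacttgactagtcttA

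The 6 genes took 262 reads in 115 tags of the SC1 list, 0.0248% of its 15 to 17 nt reads (95% exact Clopper-Pearson interval 0.0219 to 0.0280). They took 34827 reads in 1077 tags of the DMSO list, 0.185% of its 18 to 31 nt reads (interval 0.183 to 0.187). Intervals cover counting error only, since reads lacked molecular identifiers and may be copies of the same molecule, and no library was repeated. No tag was shared between members, and tags matched backwards or to the antisense strand gave 0 reads in either list. The exact interval of such a 0 reaches up to 0.00035% of the SC1 reads and 1.96e-05% of the DMSO reads.

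7SK led the members in the SC1 list and Rny1 in the DMSO list. In the SC1 list Rn7sk had 158 of the 262 reads (60.3%), Rpph1 62 (23.7%), Rny1 20 (7.63%), Rmrp 14, Rny3 5 and Vaultrc5 3. Much of the lead of Rn7sk there came from reads shared with other genes. SC1 reads that matched no gene elsewhere numbered 43 for Rn7sk, 33 for Rpph1, 13 for Rny1, 12 for Rmrp, 5 for Rny3 and 3 for Vaultrc5. In the DMSO list Rny1 had 26976 of the 34827 reads (77.5%), Rny3 4036 (11.6%), Rn7sk 2335 (6.70%), Rpph1 886 (2.54%), Rmrp 390 (1.12%) and Vaultrc5 204 (0.586%). Set per nt of transcript within the DMSO list, the level was 241 reads per nt for Rny1, 39.6 for Rny3, 7.05 for Rn7sk, 2.78 for Rpph1, 1.43 for Vaultrc5 and 1.39 for Rmrp, so Y RNA fragments stood above the others. Set the same way within the SC1 list, Rn7sk had 0.477 reads per nt, Rpph1 0.194, Rny1 0.179, Rmrp 0.0498, Rny3 0.0490 and Vaultrc5 0.0210. These last 3 rest on 14, 5 and 3 reads, and no order among them can be read at this depth.

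**Figure D1:**
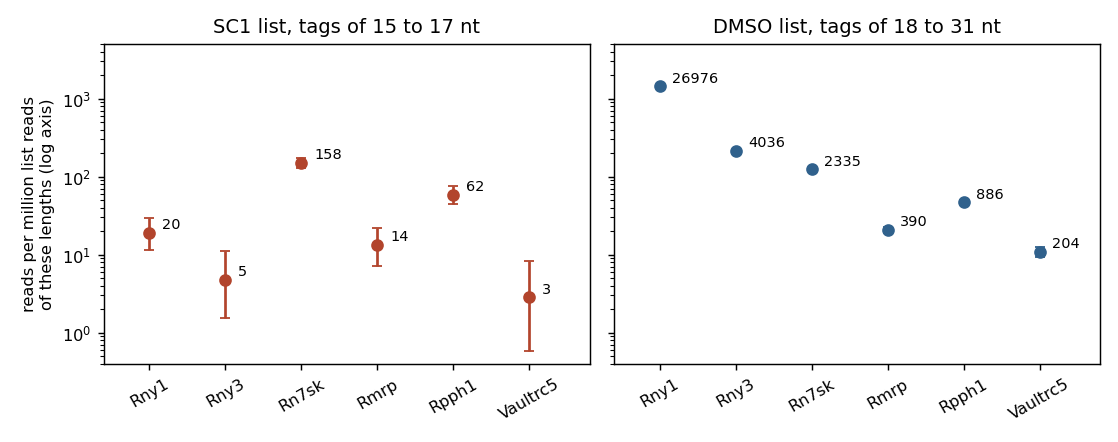
Reads in each 1000000 list reads of the lengths used (log axis) for the 6 genes in the SC1 list (left, 15 to 17 nt) and the DMSO list (right, 18 to 31 nt), with exact 95% intervals as bars and the read count beside each point. Rn7sk is highest on the left at 150 and Rny1 on the right at 1430, and the panels hold different length classes, so a gene's level is not compared across them. Reads that also matched other genes are included.

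The lengths next to the boundary between the lists were filled as follows. In the SC1 list, tags of 15, 16 and 17 nt held 22, 38 and 98 reads of Rn7sk, against 22, 26 and 14 reads of Rpph1. In the DMSO list, tags of 18, 19 and 20 nt held 143, 225 and 240 reads of Rn7sk, and 17, 53 and 103 reads of Rny1. In the DMSO list the tags of 18 to 20 nt thus held more reads of 7SK than of Rny1, although Rny1 had more reads over all lengths.

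Rny1 lies on the minus strand of chromosome 6, at 47788069 to 47788180 of GRCm38, and no other annotated gene overlaps it. Its DMSO reads came from both ends of the RNA and hardly from the loop between them. Of the 26976 reads, 15779 (58.5%, interval 57.9 to 59.1) began at base 1, and 10785 (40.0%, interval 39.4 to 40.6) began at base 83 (3648 reads) or base 84 (7137 reads). Tags lying wholly within bases 31 to 83 held 135 reads (0.500%). In the SC1 list 13 of 20 reads began at base 1, and the most frequent tag covered bases 1 to 17 with 7 reads.

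Within the lengths that the list holds, the 5′ fragment of Rny1 ended mostly at base 30 or 31. Of the 15779 DMSO reads that began at base 1, 8541 (54.1%, interval 53.3 to 54.9) ended at base 30 and 2409 (15.3%) at base 31. A smaller group of 1204 reads (7.63%) ended at base 23, and 1148 reads ended at base 29. Long tags were rare in the list as a whole, and Rny1 made up 8577 of its 156451 reads of 30 nt (5.48%, interval 5.37 to 5.60) and 2412 of its 26174 reads of 31 nt (9.22%, interval 8.87 to 9.57). The whole list held 434657 reads of 29 nt and 7479 of 32 to 44 nt, so it fell steeply at the lengths where this fragment ended. Whether longer 5′ fragments were lost to a size limit of the list was not tested.

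The 3′ fragment of Rny1 had a ragged start and a pair of separate ends. From base 84, 2552 reads ended at base 105, 1529 at base 106, 650 at base 109 and 1832 at base 110. From base 83, 1426 reads ended at base 106, 997 at base 105 and 782 at base 110. Lengths of 22 to 24 nt held 61.2% of the 3′ reads and lengths of 26 to 28 nt 35.7%, while 25 nt held 107 reads (0.992%).

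The ends of Rny1 could be told from related genes to different degrees. None of the 15779 reads from base 1 matched a gene elsewhere. Of the 3′ reads, 3610 (33.5%) ended by base 105. Tags of Rny1 with 3678 reads in all also matched Gm24372, a gene of the GENCODE biotype misc_RNA, so 3′ fragments that end by base 105 cannot be assigned to Rny1 alone.

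**Figure D2:**
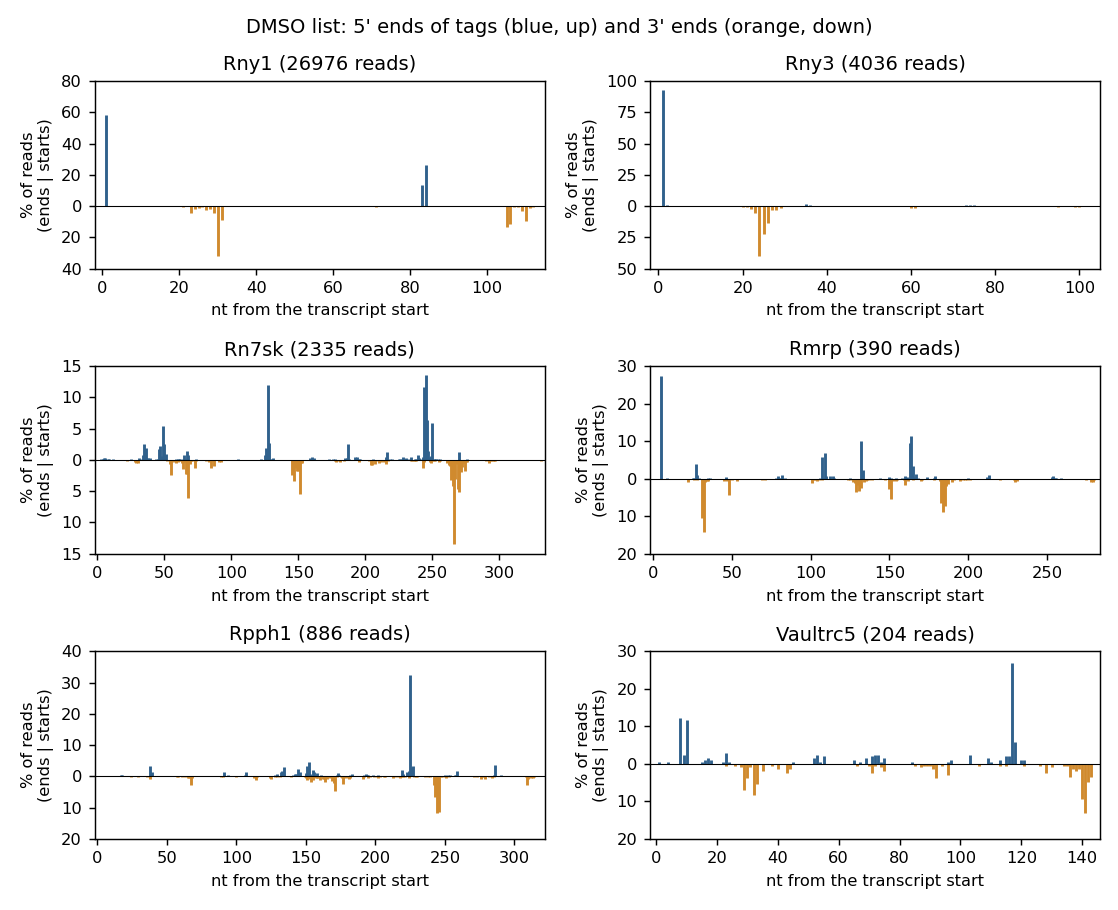
Share of each gene's DMSO reads whose 5′ end (blue, upward) or 3′ end (orange, downward) falls on each base, in nt from the transcript start, for the 6 genes. Rny1 has starts at base 1 and at bases 83 and 84, Rny3 at base 1, and 7SK, RNase MRP, RNase P and vault RNA have several starts inside the transcript; vertical scales differ between panels.

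Rny3 lies close by on the plus strand of chromosome 6, at 47781624 to 47781725, with no overlapping gene. Nearly all of its reads came from its 5′ end. In the SC1 list all 5 reads began at base 1, and 4 of them covered bases 1 to 16. In the DMSO list 3753 of 4036 reads (93.0%, interval 92.2 to 93.8) began at base 1, and 109 reads (2.70%) began at base 60 or later. Further starts were base 35, with 107 reads within 2 nt, and base 75, with 95 reads within 2 nt. No Rny3 tag matched another gene in either list.

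The 5′ fragment of Rny3 was shorter than that of Rny1. It ended at base 24 in 1612 DMSO reads (43.0%), at base 25 in 879 (23.4%) and at base 26 in 555 (14.8%), so that 81.2% of the reads from base 1 were 24 to 26 nt long. In Rny1, 69.4% of the reads from base 1 were 30 or 31 nt long, and 527 reads (3.34%) were 24 nt long. The upper limit of 31 nt lies just past the Rny1 ends, and 24 reads of Rny1 and 0 of Rny3 were found at 32 to 44 nt.

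The 5′ ends of both Y RNAs are alike in sequence where the fragments begin and differ further in. Set base against base without gaps, 10 of the first 12 bases were identical, 17 of the first 24 and 19 of the first 30. Over the whole transcripts, aligned with gaps, 81 of 112 columns (72.3%) were identical. Read from Rny1 to Rny3 without gaps, the differences within the first 24 bases were C3T, A12G, G13A, A20G, G21T, T22G and A24T. The last 4 of these fall near base 24, the most frequent end of the Rny3 fragments. They depend on the placing without gaps, since a gap there would pair some of these bases as identical.

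**Figure D3:**
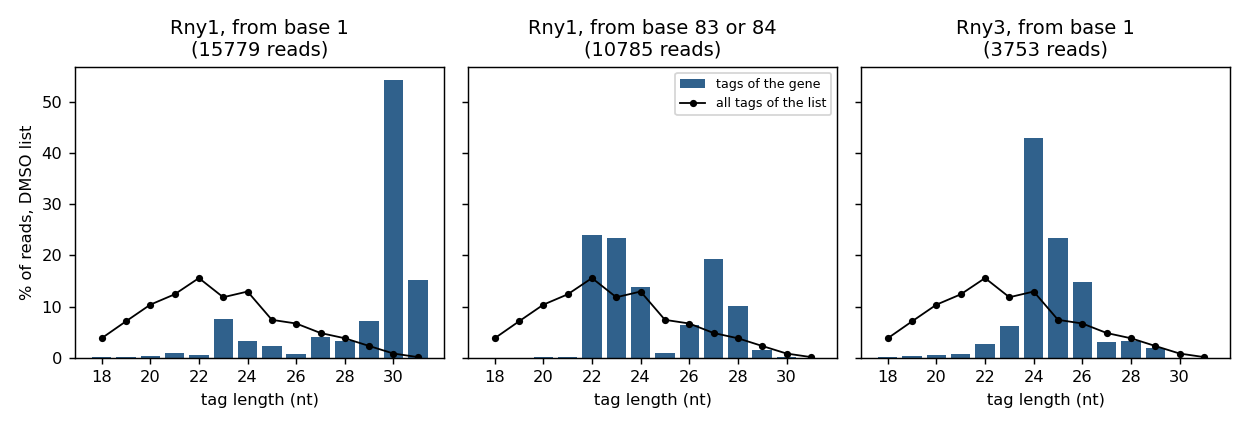
Tag length in nt (horizontal) against the share of reads in the DMSO list (bars) for Rny1 tags from base 1, Rny1 tags from base 83 or 84 and Rny3 tags from base 1, with the lengths of all tags of the list as a black line. The bars peak at 30 nt, at 22 to 23 and 27 nt, and at 24 nt, while the list as a whole peaks at 22 nt.

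The minimum free energy fold computed from the sequence alone places the Rny1 fragments on facing sides of a stem. Of bases 1 to 30 of Rny1, 23 were paired, 17 of them with bases 86 to 108, which lie within the 3′ fragment. Of bases 1 to 24 of Rny3, 21 were paired, 19 of them with bases 77 to 98. Bases 83, 84 and 110 of Rny1, where 3′ fragments began or ended, were unpaired, whereas its bases 30 and 31 were paired with bases 49 and 48, and bases 105 and 106 with bases 4 and 3. In Rny3 the ends at bases 24, 25 and 26 were all unpaired. The named fragment ends of Rny1 thus lay at both paired and unpaired bases, in a fold that leaves out bound proteins. Over all Rny1 reads of the DMSO list, 77.8% ended and 59.0% began at a paired base, and 60.7% of the transcript was paired.

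Many 3′ fragments of Rny1 carried an extra A. Beside the 10785 DMSO reads from base 83 or 84 that matched exactly, 3674 reads matched up to their last 1 to 3 bases, which were A and not in the transcript (25.4% of the 14459 reads together, interval 24.7 to 26.1). An added A was single in 3013 of these reads, 2 A were added in 562 and 3 A in 99. The 5′ fragments carried few, with 178 reads beside 15779 exact ones (1.12%, interval 0.958 to 1.29). Tags with added bases were counted up to 31 nt only, so 5′ fragments ending at base 31 (2409 exact reads) could show none. Those ending at base 30 (8541 exact reads) could show at most 1 added base. Bases 29 and 30 are A, so an A added just before either of them counted as an exact match. The shares of 5′ and 3′ fragments are therefore not on the same footing.

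The added A sat mainly on the longer of the 3′ fragments. After base 109 the A-added reads numbered 1400 against 893 exact reads (61.1%), and after base 110 they numbered 1551 against 2614 (37.2%). After base 106 there were 451 against 2955 (13.2%), and after base 105 there were 236 against 3549 (6.24%). After base 111, the last base of the RefSeq Rny1 transcript, there were 9 A-added and 371 exact reads. Among all Rny1 reads with exactly 1 extra base, A was added in 3171, T in 184, G in 28 and C in 21. Genomic copies that no annotation lists were not used here, so an added base that such a copy holds would be counted as added.

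**Figure D4:**
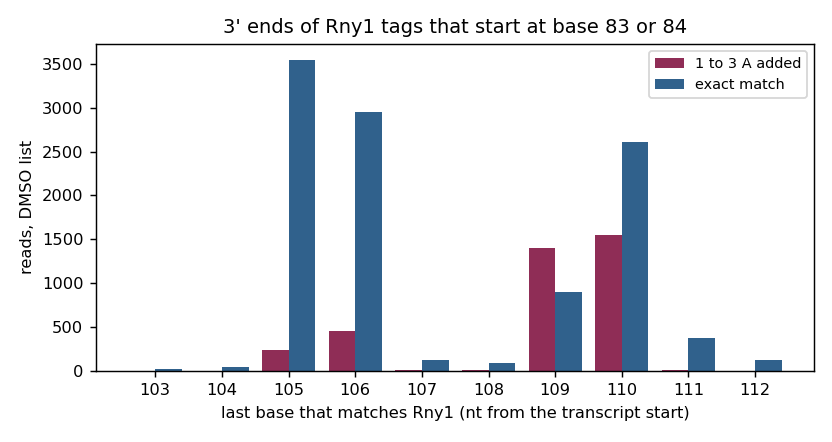
Reads of the DMSO list that begin at base 83 or 84 of Rny1, by the last base that matches the transcript, with 1 to 3 A added (purple) and without (blue). A-added reads outnumber exact reads at base 109 (1400 against 893) and are few at base 105 (236 against 3549).

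Rny3 also showed added A, on few reads and both near its 3′ end and inside the RNA. After base 99, which is 3 nt before the end of the transcript like base 109 of Rny1, there were 57 A-added and 16 exact reads (78.1%, interval 66.9 to 86.9). After base 100 there were 24 and 40, and after base 96 there were 13 and 14. Inside the RNA, after base 61, there were 38 A-added and 51 exact reads (42.7%, interval 32.3 to 53.6). Tags from base 1 of Rny3 had 37 A-added and 3753 exact reads (0.976%). The 1.12% in Rny1 is not directly comparable, since its longer 5′ fragments left less room for additions below the length limit. The SC1 list held 0 reads with added A for any of the 6 genes, from 262 exact reads. However, 0 of its 20 Rny1 reads and 0 of its 5 Rny3 reads ended within 5 nt of the 3′ end. Only tags of 16 or 17 nt could show an addition there. This 0 therefore gives no contrast with the DMSO list.

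Rn7sk lies on the minus strand of chromosome 9, at 78175303 to 78175633, with no overlapping gene. Its fragments came from inside the RNA. Within 5 nt of the 5′ end lay 5 of 158 SC1 reads (3.16%) and 25 of 2335 DMSO reads (1.07%). Within 5 nt of the 3′ end lay 0 SC1 reads and 3 DMSO reads. The DMSO tags were short, 67.5% of the reads being 18 to 23 nt long, and they covered 327 of the 331 bases.

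The main stretch of 7SK in the DMSO list began near base 245 and ended at base 266. Starts within 2 nt of base 245 held 782 of the 2335 DMSO reads (33.5%), and base 266 was the last base of 314 reads, the most frequent 3′ end. Starts within 2 nt of base 250 held 24 of 158 SC1 reads (15.2%), of which 21 likewise ended at base 266, and 169 DMSO reads (7.24%). All of these reads matched no other gene. Base 266 was thus a frequent 3′ end in both lists, and the starts lay further in among the shorter tags, as a limit of 17 nt requires of a tag that ends there.

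Several other 7SK stretches were shared with copies. Starts within 2 nt of base 50 held 61 SC1 reads (38.6%), and starts within 2 nt of base 49 held 272 DMSO reads (11.6%). Each of these tags also matched Gm24139. Starts within 2 nt of base 127 held 406 DMSO reads (17.4%), all of them also matching Gm23973. In contrast, starts within 2 nt of base 234 held 14 SC1 reads (8.86%), none of which matched a gene elsewhere. A tag could match up to 29 other genes in the SC1 list and 27 in the DMSO list. In all, 43 of 158 SC1 reads and 1079 of 2335 DMSO reads matched no gene elsewhere, and the rest cannot be assigned to Rn7sk alone.

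The RNase P RNA gene Rpph1 lies on the minus strand of chromosome 14, at 50807449 to 50807767, and an exon of Ccnb1ip1 overlaps it on the same strand. Its fragments were internal as well. The main start in the SC1 list was base 173, with 21 of 62 reads (33.9%) within 2 nt, and 19 reads ended at base 188. The DMSO list had 0 reads that ended at base 188, and its main start was base 225, with 371 of 886 reads (41.9%) within 2 nt. The stretch from base 152 was found in both lists, with 14 SC1 reads (22.6%) and 85 DMSO reads (9.59%) within 2 nt.

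Paralogs held a large part of the RNase P reads. The stretch from base 225 also matched Rprl2, an RNase P related gene, in 363 of its 371 DMSO reads. The stretch from base 152 also matched Rprl1 in all 14 SC1 reads and in 76 of 85 DMSO reads. The stretch from base 173 matched no gene elsewhere. Leaving aside the overlapping Ccnb1ip1, which shared 56 SC1 and 797 DMSO reads, 33 of 62 SC1 reads and 395 of 886 DMSO reads matched no other gene.

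**Figure D5:**
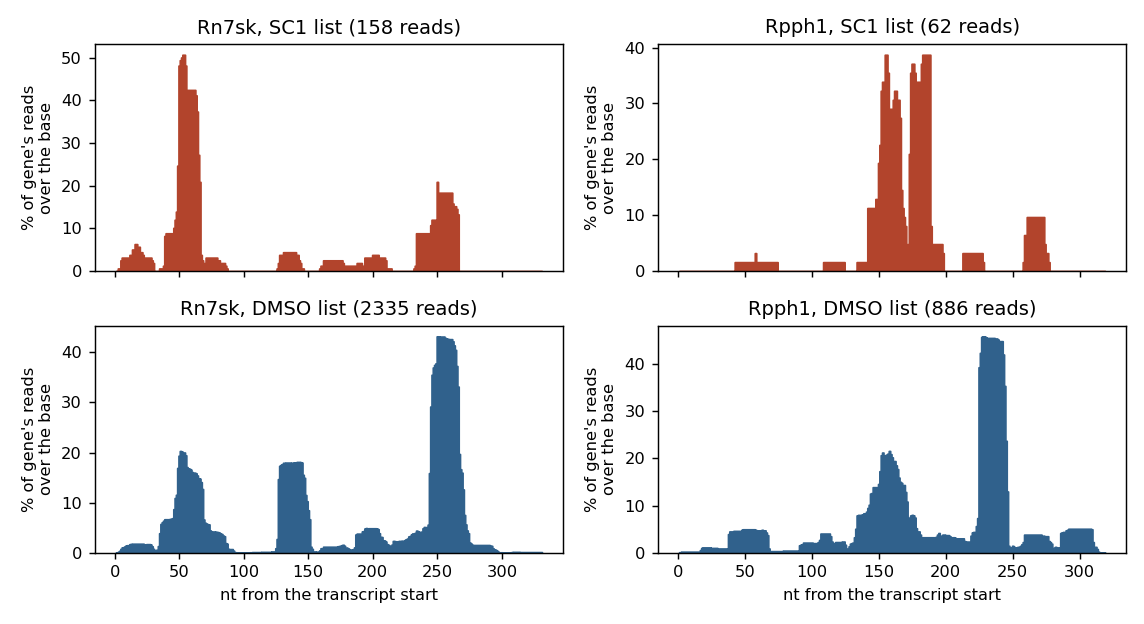
Share of a gene's reads that cover each base, in nt from the transcript start, for 7SK (left) and RNase P RNA (right) in the SC1 list (top, red) and the DMSO list (bottom, blue). In 7SK the stretches near bases 50 and 250 appear in both lists; in RNase P RNA the tall DMSO stretch from base 225 covers few SC1 reads, and the lists hold tags of different lengths.

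The RNase MRP RNA gene Rmrp lies on the minus strand of chromosome 4, at 43492783 to 43493063, and an exon of Ccdc107 overlaps it on the opposite strand. Its DMSO reads were spread over several starts. Base 5 began 107 of 390 reads (27.4%, interval 23.1 to 32.2), and 55 of these covered bases 5 to 32. Base 5 is the first base of the RefSeq transcript of Rmrp, and no DMSO read began before it. Further starts, each counted within 2 nt, were base 164 with 96 reads, base 109 with 54 and base 132 with 48. The 14 SC1 reads fell on 12 tags and gave no hot spot above 3 reads.

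At the 3′ end of Rmrp, 110 DMSO reads matched up to base 281, the last base of the GENCODE transcript, and went on with 1 to 3 T. No read ended at base 281 exactly. The genomic bases past that end were not used here, so a longer transcript and added T cannot be told apart. The most frequent of these tags had 33 reads and is given with the bases past the annotated end in capitals.
Rmrp, DMSO list, bases 263 to 281 with 3 further bases: attctcagcgcggctacacTTT

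Vaultrc5 lies on the plus strand of chromosome 18, at 36801866 to 36802008, with no overlapping gene. It had 3 SC1 reads, each on a different tag, and 204 DMSO reads. The DMSO reads formed an inner 5′ and a 3′ group. Starts within 2 nt of base 117 held 75 reads (36.8%, interval 30.1 to 43.8), ending most often at base 141. Starts within 2 nt of base 8 held 54 reads (26.5%, interval 20.6 to 33.1), ending most often at base 32. Both groups are near the ends of the 143 nt GENCODE transcript, and 22 to 25 nt was the length of 66.7% of the reads. RefSeq gives a longer transcript, from base -102 to base 242 in the same count, and within it both groups would be internal. In the computed fold 13 of bases 8 to 32 were paired, 9 of them with bases 117 to 127. No tag matched another gene.

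The first base of the tags set the Y RNAs apart in the DMSO list. G was the first base of 95.0% of Rny3 reads and 58.6% of Rny1 reads, and of 18.0% of all reads of 18 to 31 nt. Since 93.0% of Rny3 reads and 58.5% of Rny1 reads began at base 1, which is G in both, this share restates the start. In the other genes the first base was most often C for Rn7sk (43.3%), Rmrp (50.8%) and Rpph1 (63.5%), and G for Vaultrc5 (33.3%).

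The short SC1 tags lay within the longer DMSO tags of the same genes. Of the 262 SC1 reads, 261 (99.6%, interval 97.9 to 100) were contained in a DMSO tag, 228 (87.0%, interval 82.3 to 90.8) were the beginning of one, and 202 were the end of one, so a read could be both. In Rn7sk 148 of 158 reads were a beginning and 145 an end. In Rpph1 53 of 62 reads were a beginning and 37 an end. In Rmrp 4 of 14 reads were a beginning and 11 an end. DMSO tags covered nearly every base of 2 of these transcripts, 98.8% in Rn7sk and 98.4% in Rpph1, so containment is a weak measure. A shared beginning or end is a limited measure too. DMSO tags began at 130 bases and ended at 147 bases of Rn7sk, and began at 96 and ended at 102 bases of Rpph1. No share to be met without any relation was computed. Whether the short tags were cut from longer fragments was not tested.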

How the data were processed

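The values are raw read counts of distinct tags, deposited by the authors as 1 list for each library and not normalized. The closing total of the DMSO list was left out. The submitters' processing notes name the build mm9, which was not used here. How reads were trimmed, aligned or filtered by length is not given in the sources used here.

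A tag counted for a gene if its transcript in GENCODE M21 (GRCm38) held it, on the same strand and with no mismatch, with all other GENCODE genes searched for shared tags. The genome itself was not used here. A tag found at 2 positions of a gene (3 SC1 and 7 DMSO reads) took the first. Hot spots are the most frequent starts with all starts within 2 nt. End reads lie within 5 nt of a transcript end, by start for the 5′ and by end for the 3′ end. Added bases are 1 to 3 A or T after the longest matching stretch, in tags of the lengths used. Intervals are exact (Clopper-Pearson) at 95%, and 1 library per condition allowed no test between conditions. A separate lookup of simulated reads, drawn from the member transcripts, and of random tags was also run. It did not cover tags shared with other genes, added bases or sequencing errors, so it does not test those steps.

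All 6 genes are named. The members, the marker lists and the alternatives were chosen with earlier results of these data known. Python 3.11.15, numpy 2.4.6, scipy 1.17.1, matplotlib 3.10.9, Biopython 1.88 and ViennaRNA 2.7.2 were used.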

Additional observations from a re-analysis of the deposited data

Results flagged for a closer look

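Tags of 32 to 44 nt lay outside the lengths used for the DMSO list. Of their 7479 reads, 24 matched Rny1 (0.321%, exact interval 0.206 to 0.477), which is above the floor of 3 reads set for such counts. Of these, 23 reads were 32 nt long and 1 read was 33 nt long. Rny3, Rn7sk, Rmrp, Rpph1 and Vaultrc5 had 0 reads at these lengths.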

How the results depend on the processing

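The share of list reads in the 6 genes was 0.0248% in the SC1 list and 0.185% in the DMSO list, and it moved with most choices. With tags of at least 2 reads it was 0.0184% (SC1) and 0.188% (DMSO), with tags of at least 10 reads 0.00502% in the SC1 list, and by distinct tags 0.173% and 0.119%. Without tags of any other gene it was 0.00721% (SC1) and 0.154% (DMSO). Reversed and antisense tags gave 0% in both lists. Removal of untemplated A or T gave 0.212% in the DMSO list, and a window of 18 to 26 nt gave 0.105% there, since it takes in no Rny1 fragment of 30 nt. Alternatives chosen after seeing the data allowed overlapping genes but no gene elsewhere, which gave 0.0103% (SC1) and 0.156% (DMSO), or left out Rny1, which gave 0.0416% in the DMSO list. The remaining alternatives moved the shares by less than their intervals. Splitting tags among members changed none of 12 read counts. An end window of 2 nt moved 8 of 24 end shares and a window of 10 nt moved 4. The share of Rny1 reads at the 3′ end was 11.7%, 15.9% and 40.9% with windows of 2, 5 and 10 nt in the DMSO list. No paired analysis was possible because there was only 1 SC1 library and 1 DMSO library. Depth limits the SC1 values of 4 of the 6 genes, which had 20 reads or fewer, and 153 of the 262 SC1 reads also matched a gene elsewhere.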

Other observations

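Other noncoding RNAs were counted for scale. The 7SL RNA genes Rn7s1 and Rn7s2, which make the RNA of the signal recognition particle, had 2053 SC1 reads and 18648 DMSO reads. Within the DMSO list that is 62.2 reads per nt, between Rny1 and Rny3. Reads of 7SL that also match other genes were not set apart in this value. Terc, the telomerase RNA, had 18 SC1 and 61 DMSO reads. Rnu7, the U7 RNA that acts in histone mRNA processing, had 15 SC1 and 49 DMSO reads, and Bc1, a brain cytoplasmic RNA, had 45 SC1 and 52 DMSO reads. Of the RNase P related genes, Rprl1 had 18 SC1 and 76 DMSO reads, Rprl2 2 SC1 and 396 DMSO reads, and Rprl3 4 SC1 and 15 DMSO reads. Most of these reads were also counted for Rpph1 above and are not separate from it. Tags shared with Rpph1 held all the reads of Rprl1 and all 396 DMSO reads of Rprl2. For Rprl3 they held 4 SC1 and 9 DMSO reads.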
